A study of Drosophila melanogaster with 12 samples.

Results

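This comparison set accessory glands that overexpressed wild-type Yorkie (YkiWT) against control glands, using 6 of the 12 RNA libraries of the study, 3 per genotype, chosen by the genotype in the sample labels, with all genes of the table in view. The accessory gland is the secretory organ of the Drosophila male that makes most seminal fluid proteins, and the study used it as a model of the prostate. The control (GFP+P35) carried the heat-shock flippase (y,w,hs-flp12), the Gal4 driver with its stop cassette (Act>CD2>gal4), UAS-P35 and UAS-GFP(nls), and the YkiWT glands carried the same elements with a UAS transgene of wild-type yki. In all groups a heat shock of 20 min at 37°C, on the day of eclosion by the labels and 24 to 48 h after it by the study's methods, removed a stop cassette, after which the actin promoter drove Gal4 in part of the cells. Every group therefore expressed P35, an inhibitor of apoptosis, and nuclear GFP. The males were virgin, kept at 25°C and dissected at 10 days of age, the testis and ejaculatory duct were removed, glands with little or no GFP were left out, and 80 to 100 glands were pooled per library. Each genotype was run as 3 independent replicates. The glands are mosaics that were picked by eye for GFP, the share of expressing cells in each library is not given in the sources used here, and the parental background and the transgene cannot be told apart. Glands of another genotype, Yki*+Dp, carried an activated Yki (a UAS-Yki that the label marks by 3 altered positions) with UAS-Dp and a UAS-E2F1 listed in the label. They serve below to show where YkiWT glands differed from that genotype. Values of the remaining genotype, Myc+E2f/Dp (UAS-E2F1, UAS-Dp and UAS-dMyc), are given for a few genes.

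Yorkie is the transcriptional coactivator at the end of the Hippo pathway. The kinases Hippo and Warts phosphorylate it and keep it out of the nucleus. When they are off, Yorkie binds DNA with Scalloped and raises genes of growth and survival such as Diap1, ex and CycE. The gland epithelium is a single layer of binucleate main cells, which make Sex Peptide and most Acp proteins, and a smaller number of secondary cells at its tip.

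The deposited table gives TPM for 14323 genes, a measure that divides the estimated reads of a transcript by its length and brings every library to a total of 1000000. Depth is not recorded in TPM, so the precision of each value rests on the spread of 3 libraries. Between 6902 and 7257 genes reached 1 TPM in control and 7248, 7402 and 7817 in YkiWT replicates 1, 2 and 3. Across genes the correlation between libraries of a genotype was at least 0.989 in control and YkiWT and 0.986 over all 4 genotypes. The gland label fitted its markers: SP (Sex Peptide) had 19785 to 22771 TPM in control and 19723 to 20212 in YkiWT, and prd, a transcription factor of the gland, had 119 to 136 and 103 to 129. The groups overlapped in both genes. No fat body or trachea marker reached the level needed for testing, but their sums were higher in every YkiWT library, at 0.637 to 1.501 TPM against 0.361 to 0.581 in control for 9 fat body markers and 0.714 to 1.27 against 0.262 to 0.485 for 4 trachea markers. Neuron markers summed to 11.04 to 12.4 TPM in YkiWT and 7.14 to 9.54 in control, and none of the 4 tested passed the adjusted p. The summed level of the muscle sheath markers was 545, 649 and 669 TPM in control and 744, 823 and 675 in YkiWT. None of these 4 sums overlapped between the groups, the exact permutation p of each was 0.1, the smallest that 3 against 3 allows, and the part of these tissues in the results was not tested. Sums of other gene lists, such as septate junctions and serpins, had the same exact permutation p, and others, such as Acp and Sfp genes (0.5), did not. Ejaculatory duct and bulb markers summed to 309, 725 and 652 TPM in control and 595, 1114 and 699 in YkiWT, so their level varied within both genotypes.

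YkiWT replicate 3 stood apart from the other libraries. In it 41 genes had at least 1 TPM and at least 5 times the level of every other library of the study, against 20 in YkiWT replicate 1, 1 in YkiWT replicate 2 and 0, 1 and 0 in the controls. The leading genes of that set were CG14645, with 21.4 TPM against at most 0.402 elsewhere, the ribosomal protein paralog RpS19b, with 5.59 against at most 0.569, and RpL22-like, with 4.51 against at most 0.307. Among 20 markers of the early germline and testis tip, vas had 0.941 TPM in this library against 0.0145 and 0.0227 in the other YkiWT libraries and at most 0.0394 in control, and aub had 0.989 against 0.0248 and 0.0173 and at most 0.0526. The differentiation factor bam was at 0 in all 3 controls and in YkiWT replicate 1, and had 0.00742 and 0.3 TPM in replicates 2 and 3. The sum over all 20 markers was 16.5, 20.5 and 28.7 TPM in YkiWT and 19.5 to 23.8 in control. Of the 20, 5 were tested, and only 1 of these had a positive log2 fold change. Their median was -0.10, with 1 higher and 1 lower at the adjusted p. Spermatocyte and spermatid markers, 24 genes, summed to 33.2, 84.2 and 130 TPM in YkiWT and to 38.8, 16.7 and 111.5 in control, so they varied widely in both genotypes. The 6 markers of the somatic hub and cyst cells summed to 19.0, 24.1 and 32.3 TPM in YkiWT and 12.6, 17.8 and 14.2 in control, with no overlap. Nearly all of that sum was Fas3, also a junction protein of epithelia, which was the only one tested and rose by 0.67 (limma, BH-adjusted p = 0.030, and 0.085 without replicate 3). None of the 41 genes was among those tested, and the part of testis RNA in the results was not tested. Results are therefore given with and without YkiWT replicate 3.

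The overexpressed gene was examined first. yki (chromosome 2R, 24065975 to 24068485, minus strand, of the BDGP6.54 annotation) had 14.2, 16.5 and 14.7 TPM in the controls and 77.7, 70.5 and 163 in YkiWT. All YkiWT libraries lay above all controls, and replicate 3 had the highest level. The log2 fold change was 2.56, with a standard error (SE) of 0.40 and an adjusted p = 0.0027 (limma, with the Benjamini-Hochberg method, BH), and 2.18 without replicate 3. The rise came mainly from 1 transcript, FBtr0309372, which held 18.2%, 13.6% and 19.8% of yki TPM in control and 71.0%, 73.1% and 85.2% in YkiWT. Its level went from 2.59, 2.25 and 2.92 TPM to 55.2, 51.6 and 139. The other yki transcripts together had 11.6, 14.2 and 11.8 TPM in control and 22.5, 18.9 and 24 in YkiWT. How kallisto divided reads among transcripts that share exons sets this split. In Yki*+Dp the same transcript had 318, 397 and 361 TPM, more than in any YkiWT library, and total yki was 1.68 higher on the log2 scale than in YkiWT (SE 0.40; limma, BH-adjusted p = 0.010). The transgenes of the other genotypes did not pass the test in YkiWT, with log2 fold changes of -0.19 for E2f1, -0.03 for Dp and -0.26 for Myc (limma, BH-adjusted p = 0.44, 0.93 and 0.39).

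**Figure D1:**
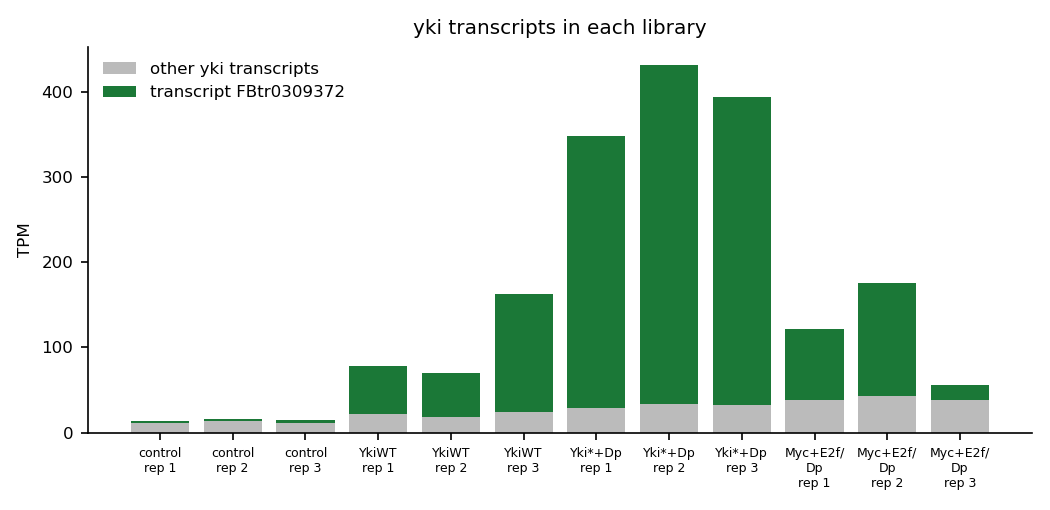
Stacked bars give the TPM of yki in each of the 12 libraries, on a linear axis from 0, split into transcript FBtr0309372 and all other yki transcripts. In YkiWT the named transcript holds 71.0% to 85.2% of yki TPM, against 13.6% to 19.8% in control.

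Testing covered 8128 genes, those that reached 1 TPM in no fewer than 3 of the 12 libraries, and far more genes rose than fell. The test was limma, as above. Calls needed an adjusted p under 0.05 and a log2 fold change beyond 1 or -1. Fold changes are differences of log2(scaled TPM + 1), which makes the change of low genes look smaller than it is. By that rule 173 genes were called (2.13% of those tested), 153 higher (1.88%) and 20 lower (0.246%) in YkiWT. At any fold, 597 genes (7.34%) were higher and 265 (3.26%) lower at the same adjusted p. The median log2 fold change over all tested genes was 0.01. Genes whose YkiWT libraries all lay above the controls made up 18.4% of those tested, and those all below 15.2%. In bulk RNA, fewer cells of a type and less RNA per cell cannot be told apart. Copies with the same values in every library inflate the count, since 9 His2A genes are among the risen genes with a single set of values, and 165 called genes were distinct. Of the 171 called genes with coordinates, 80 overlapped another gene, 51 of them one on the other strand. The libraries were stranded, but whether strand was used in assigning reads is not given in the sources used here, so for these genes the source of the signal is uncertain.

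Without YkiWT replicate 3, 140 of 8059 tested genes were called (1.74%), 122 higher (1.51%) and 18 lower (0.223%). Calls shared with the full set numbered 128, of which 17 were falls. A further 45 calls, 42 of them rises, needed replicate 3, 3 of them because the gene was no longer tested, and 12 appeared only without it. Among the 153 risen genes replicate 3 had the highest YkiWT level in 91 and the lowest in 31. The 3 falls that were no longer called were CG14854, CG11257 and His2A:CG33808. CG11257 was also not called without control replicate 1, nor His2A:CG33808 without YkiWT replicate 1 or 2 or control replicate 3.

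**Figure D2:**
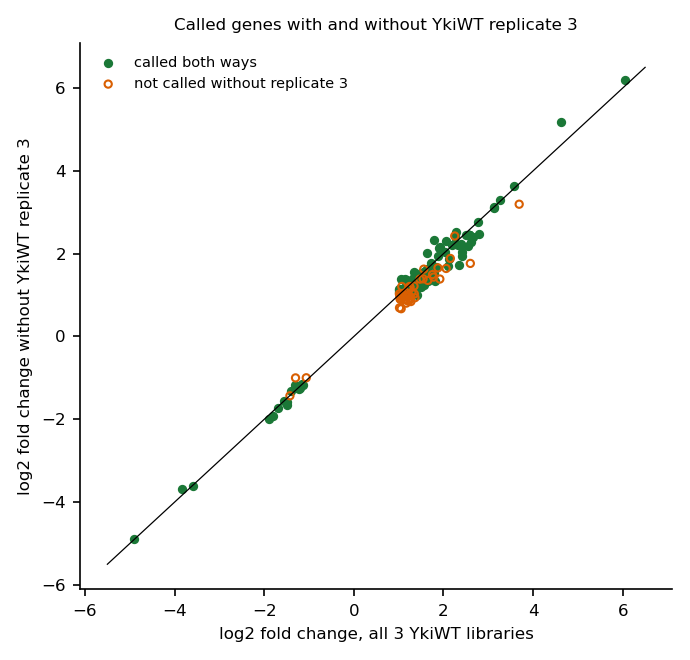
Each point is 1 called gene, with its log2 fold change of YkiWT against control from all 3 YkiWT libraries on the x axis and from replicates 1 and 2 on the y axis, and the line marks equal values. Filled points are the 128 genes called both ways, open points those tested but not called without replicate 3, and no point changes sign.

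Most of the largest rises were of genes that the control gland held at a low level. CG43403 (2L, 2620187 to 2620782, plus strand), a protein-coding gene with no name, had 1.65, 1.51 and 2.61 TPM in control and 203, 200.4 and 157 in YkiWT. The groups were far apart and replicate 3 was the lowest of the YkiWT libraries. The log2 fold change was 6.06 (SE 0.48; limma, BH-adjusted p = 2.9e-05), or 97.2-fold in mean TPM, and 6.18 without replicate 3. Obp56g, a member of the odorant-binding protein family found in seminal fluid, went from 54.2, 99.5 and 22.3 TPM to 1765, 2014 and 611. Its lowest YkiWT library was again replicate 3, at several times the highest control, and the log2 fold change was 4.63 (adjusted p = 0.00063, limma with BH adjustment). It was the most abundant gene among these leading rises. CG6282 stood at 0.116, 0.17 and 0.0647 TPM in control and at 8.73, 8.38 and 7.86 in YkiWT, with little spread in either group. It had the smallest adjusted p of the rises named here, 1.0e-07 (limma, BH), at a log2 fold change of 3.27. CG34301 had 0.134, 1.04 and 0.262 TPM in control against 14.6, 14.7 and 13.1 in YkiWT, a log2 fold change of 3.58. CG13538 had 0.873, 1.08 and 0.983 against 14.6, 16.1 and 15.3, a log2 fold change of 3.13. Both kept their call without replicate 3, as did CG18557 at a log2 fold change of 3.12. CG34227 rose by 3.69 with 8.99, 5.92 and 22.1 TPM in YkiWT against at most 0.0792 in control, but this call was lost without replicate 3 and without control replicate 1 or 3. Leaving out each of these gave limma adjusted p-values of 0.063, 0.053 and 0.052 by the BH method.

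**Figure D3:**
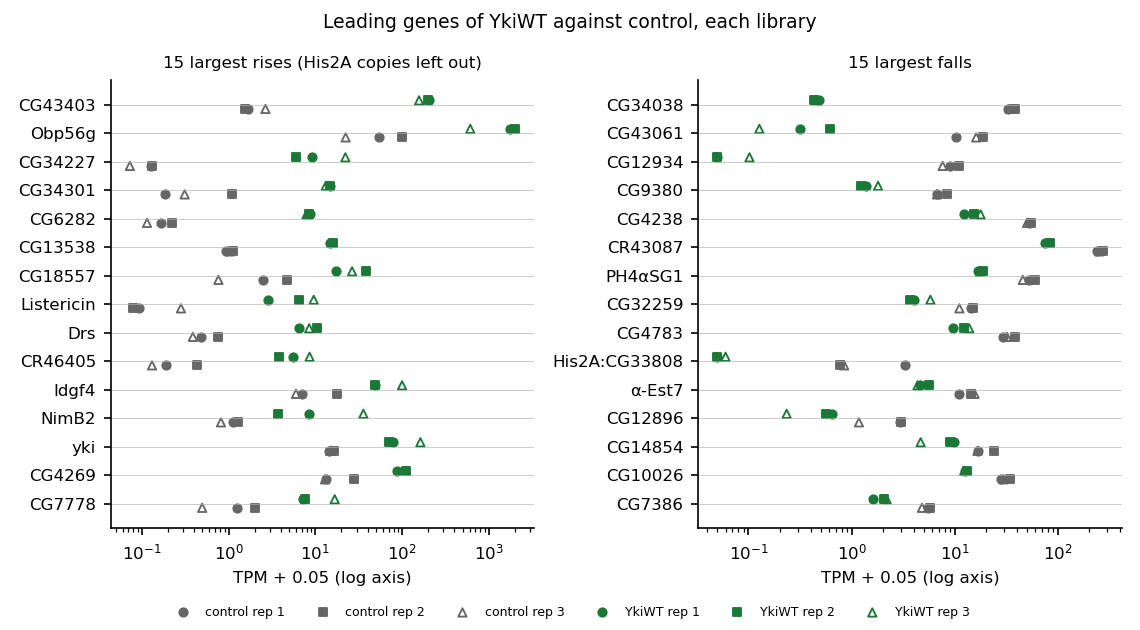
TPM plus 0.05 on a log axis in each control and YkiWT library, for the 15 genes with the largest rise (left, His2A copies left out) and the 15 with the largest fall (right), with replicate 3 as open triangles. In every gene shown the YkiWT points lie on one side of the control points.

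The largest falls, those of CG34038, CG43061 and CG12934, left under 1 TPM in every YkiWT library. CG34038 (2R, 25167659 to 25169855, plus strand) had 32.6, 37.8 and 33.9 TPM in control and 0.436, 0.383 and 0.404 in YkiWT, a log2 fold change of -4.90 with an SE of 0.081 (limma, BH-adjusted p = 2.6e-11). The libraries within each group were close together and replicate 3 lay between the other YkiWT libraries. CG34038 was as low in the other genotypes, at 0.181 to 0.296 TPM with Yki*+Dp and 0.322 to 0.795 TPM with Myc+E2f/Dp. CG43061 went from 10.3, 18.5 and 16 TPM to 0.268, 0.563 and 0.0775, and was at or below 0.203 TPM in every Yki*+Dp and Myc+E2f/Dp library. Its log2 fold change was -3.84, and it overlaps CG43060. CG12934 (2R, 10648888 to 10649830, plus strand) behaved otherwise. It had 8.92, 11 and 7.57 TPM in control and was listed at 0, 0 and 0.0523 in YkiWT, yet stood at 10.5, 7.32 and 7.54 in Yki*+Dp. Myc+E2f/Dp libraries had 6.34, 7.18 and 6.44. Only YkiWT was low, with no overlap with any other library, and the log2 fold change against control was -3.59 (limma, BH-adjusted p = 1.0e-07).

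The other falls were smaller. The pseudogene CR43087 went from 239, 271 and 251 TPM to 74.8, 83.7 and 82.9, a log2 fold change of -1.70. PH4αSG1, a prolyl 4-hydroxylase subunit, the kind of enzyme that modifies collagen, went from 51.9, 59.7 and 45.6 TPM to 16.7, 18.9 and 17.5 (log2 fold change -1.57). mre11, a nuclease of DNA break repair, had 5.17, 7.14 and 7.82 TPM in control and 2.46, 2.40 and 2.62 in YkiWT (log2 fold change -1.21). The carboxylesterase gene α-Est7 fell by 1.39 on the log2 scale, from 10.9, 14.2 and 15.5 TPM to 4.57, 5.51 and 4.30. The groups did not overlap in these genes, and each was called without replicate 3 as well.

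Components and classic targets of the Hippo pathway gave no call. Of 23 tested pathway components none was called and none passed the adjusted p at any fold, and their median log2 fold change was -0.04. The kinase gene hpo had 4.01, 4.6 and 4.21 TPM in control and 3.65, 4.4 and 4.92 in YkiWT, and sd, which encodes the DNA-binding partner Scalloped, had 11.8, 16.3 and 13.4 against 12.4, 14.0 and 14.5. The groups overlapped in both. Of 14 tested Yki and Scalloped target genes none was called, and the median was -0.04. The target ex had 2.36, 3.67 and 2.76 TPM in control and 2.38, 3.44 and 2.81 in YkiWT, the caspase inhibitor gene Diap1 had 30.5, 40.1 and 37.9 against 41.6, 40.4 and 36.8, and CycE had 1.01, 1.32 and 0.915 against 0.75, 1 and 1.11. The groups overlapped in all 3. The polarity gene crb and the ligand gene Wnt2 passed the adjusted p below the fold threshold, with log2 fold changes of 0.44 and 0.70, and Wnt2 was called with a pseudocount of 0.1 (log2 fold change 1.10). In Yki*+Dp ex and Diap1 stood higher than in YkiWT: ex had 10.8, 15 and 13.3 TPM and Diap1 85.2, 113 and 83.1. The differences between these genotypes were 1.60 and 0.89 on the log2 scale (limma, BH-adjusted p = 6.0e-06 and 0.00023). Both medians of -0.04 turned to 0.01 with TPM as deposited.

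Genes of cell cycle and growth gave no call either, though the nucleolar targets of Myc were lower as a list. None of 43 DNA replication genes and none of 31 mitosis genes was called, with medians of 0.03 and 0.14, and the mitosis median was -0.01 without replicate 3. Ribosomal protein genes, 85 tested, had a median of -0.06 and no call. Among 21 nucleolar targets of Myc, 4 were lower at the adjusted p, against 3.26% of all tested genes as given above, and none was called, with a median of -0.19. None of the 21 had a positive log2 fold change. In 15 of them all YkiWT libraries lay below all controls, against 15.2% of all tested genes. Without replicate 3 the median was -0.14.

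Some septate junction and integrin genes rose, most of them by less than the fold threshold. Of 30 septate junction genes, which form the barrier between insect epithelial cells, 13 were higher at the adjusted p and none lower, against 7.34% and 3.26% of all tested genes, with a median of 0.42. Without replicate 3 the median was 0.32. Only Ssk, a membrane protein of smooth septate junctions, was called. It had 7.95, 10.0 and 7.28 TPM in control and 23.7, 29.6 and 47.1 in YkiWT. The groups were apart, with replicate 3 the highest, and the log2 fold change was 1.80 (SE 0.27; limma, BH-adjusted p = 0.0019), or 1.53 without replicate 3. Ssk overlaps CG42674 on the other strand. Below the fold threshold, cold rose by 0.78 from 11.3, 15.1 and 14.2 TPM to 24.5, 28.2 and 21.3, and Lac by 0.73, from 17.7, 24.3 and 19.8 to 31.8, 36.1 and 39.7. Of 13 integrin and adhesion plaque genes, 6 were higher and none lower at the adjusted p, against the same 7.34% and 3.26%, with a median of 0.33. The polarity and adherens junction genes, 20 tested, did not share this, with 2 higher and 1 lower at the adjusted p, no call and a median of 0.04. Itgbn, the βν integrin subunit, had 10.5, 16.4 and 12.8 TPM in control and 24.9, 30.7 and 31.7 in YkiWT, a log2 fold change of 1.05. That value was 0.99 without YkiWT replicate 3 and 0.97 without control replicate 1, both under the fold threshold. The adhesion plaque gene stck, which encodes PINCH, went from 16.8, 17.7 and 16.4 TPM to 32.2, 35.4 and 30.9 (log2 fold change 0.87), and ics, the ortholog of the PINCH partner Rsu1, went from 10.1, 10.5 and 8.81 to 22.7, 23.3 and 23.0 (log2 fold change 1.12).

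Among 28 actin cytoskeleton genes 8 were higher and 2 lower at the adjusted p (7.34% and 3.26% over all tested genes), with a median of 0.25, and 1 was called. The cytoplasmic actin gene Act42A had 32.0, 38.8 and 26.6 TPM in control and 51.8, 105 and 77.6 in YkiWT, a log2 fold change of 1.15. Its call was lost without YkiWT replicate 2 (log2 fold change 0.94) and without control replicate 3 (limma, BH-adjusted p = 0.051). Act5C rose by 0.62 and the cofilin gene tsr by 0.86, the latter from 194, 223 and 187 TPM to 372, 409 and 359. Outside the list, cib, an actin-binding protein gene, went from 33.3, 46.4 and 29.8 TPM to 87.5, 92.7 and 134, a log2 fold change of 1.44. The lists of septate junction, integrin and actin genes kept positive medians under every scaling tried.

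Among targets of the JNK stress kinase, 11 tested, only the secreted matrix protease gene Mmp1 was called, against 1.88% of all tested genes called higher. At the adjusted p, 3 of the 11 were higher and none lower, against 7.34% and 3.26% of all tested genes. Mmp1 had 1.45, 1.67 and 0.684 TPM in control and 3.91, 5.55 and 8.99 in YkiWT. No YkiWT library overlapped a control, replicate 3 was the highest, and the log2 fold change was 1.67 (SE 0.29; limma, BH-adjusted p = 0.0044), or 1.39 without replicate 3, where the call held. Mmp1 overlaps Pof on the other strand. Its inhibitor gene Timp passed the adjusted p with a log2 fold change of 0.93, from 16.9, 20.8 and 16.4 TPM to 32.8, 40.1 and 35.7. The JNK phosphatase gene puc had 2.38, 3.31 and 3.24 TPM in control and 3.53, 4.18 and 4.86 in YkiWT, a log2 fold change of 0.36 that did not pass (limma, BH-adjusted p = 0.21). Of 14 JAK/STAT pathway genes only vir-1, a gene raised by this pathway on viral infection, was called, against the same 1.88%. It went from 21.8, 35.8 and 24.6 TPM to 76.0, 75.4 and 95 (log2 fold change 1.53). At the adjusted p, 3 of the 14 were higher and 1 lower, against the same 7.34% and 3.26%. The ligand gene upd3 had 0.412, 0.156 and 0.0684 TPM in control and 0.839, 0.908 and 0.850 in YkiWT with no overlap, a log2 fold change of 0.70 that did not pass (adjusted p = 0.13, limma with BH adjustment). With a pseudocount of 0.1 it was 1.82 and called (limma, BH-adjusted p = 0.029). The EGF receptor ligand gene Krn rose by 0.88, from 9.36, 12.3 and 9.77 TPM to 19.8, 20.4 and 21.7. It was the only one of 16 EGF receptor pathway genes to pass, against 7.34% of all tested genes higher at the adjusted p. Of 29 tested genes that the study lists as tumor signaling genes, 3 were called higher (Mmp1, Itgbn and Mec2) and none lower. Over all tested genes the shares were 1.88% and 0.246%. The study chose that list on these samples, so the count is not independent evidence. Ets21C, a transcription factor gene on it, had 0.682, 0.289 and 0.231 TPM in control and 1.07, 1.10 and 0.560 in YkiWT, and did not pass (limma, BH-adjusted p = 0.16).

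Several genes of humoral immunity rose. Listericin, an antibacterial peptide gene, had 0.0434, 0.03 and 0.232 TPM in control and 2.81, 6.45 and 9.53 in YkiWT, and the antifungal peptide gene Drs had 0.428, 0.708 and 0.337 against 6.47, 10.3 and 8.44. Neither overlapped between the groups, and the log2 fold changes were 2.80 and 2.78 (limma, BH-adjusted p = 0.0067 and 0.0063). Both calls held without replicate 3. They were the only 2 calls among 13 tested of 30 antimicrobial peptide genes, and the median of the 13 was 0.74. Both were under 1 TPM in every control, so they entered testing through their level in other groups. That median is therefore of genes chosen in part by their rise. The sum over all 30 genes, which needs no filter, was 12.9, 23.7 and 27.4 TPM in control and 45.3, 51.1 and 54.6 in YkiWT. Over all tested genes 1.88% were called higher. The Bomanin, Daisho and Baramicin genes encode short secreted peptides induced by the Toll pathway. The list of these genes also holds Bbd, whose product Bombardier acts with the Bomanins. Of its 14 tested members, 4 were called higher, Bbd among them, and none lower, against 1.88% and 0.246% of all tested genes, with a median of 0.90. The summed TPM of the list was 414, 593 and 428 in control and 1214, 1265 and 1899 in YkiWT. Nearly all of that sum was Bbd, so it says little of the other members. Bbd had 405, 580.1 and 407 TPM in control and 1162, 1235 and 1860.2 in YkiWT. Replicate 3 was the highest, and the log2 fold change was 1.54 (limma, BH-adjusted p = 0.0043), or 1.34 without replicate 3. BomT3, BaraA1 and Dso1 were the other calls, at log2 fold changes of 1.19, 1.56 and 1.34. The call of BaraA1 was lost whichever library was left out, and that of Dso1 without YkiWT replicate 1 or 3 or control replicate 1 or 3 (limma, BH-adjusted p up to 0.13 and 0.086).

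Upstream of these peptides, 3 of 21 Toll and Imd pathway genes were called higher and none lower, against 1.88% and 0.246% of all tested genes. The serpin gene nec, an inhibitor of Toll activation, had 0.859, 2.48 and 0.915 TPM in control and 4.78, 3.58 and 8.30 in YkiWT (log2 fold change 1.49, and without control replicate 1 a limma BH-adjusted p = 0.051). PGRP-SA, a sensor of bacterial peptidoglycan, had 0.963, 1.15 and 0.671 against 3.02, 4.55 and 2.36 (log2 fold change 1.182, and just under 1 with the call lost without YkiWT replicate 2). PGRP-LB, an enzyme that limits the Imd response, had 2.54, 2.71 and 3.05 against 6.11, 8.74 and 5.36 (log2 fold change 1.01), and its call was lost when any library except YkiWT replicate 3 was left out, with adjusted p-values up to 0.11 by limma with BH adjustment. The receptor gene Tl and the Imd inhibitor gene pirk moved the other way at the adjusted p, by -0.57 and -0.49, and the fall of Tl was called at -1.07 with a pseudocount of 0.1. Among serpins, Spn27A, an inhibitor of the melanization cascade, rose by 1.35 and kept its call without replicate 3. NimB2, of the Nimrod family of secreted and scavenger proteins, had 1.08, 1.24 and 0.767 TPM in control and 8.32, 3.63 and 35.7 in YkiWT. Replicate 3 stood far above the others, and the log2 fold change of 2.60 was 1.77 without it. The call was lost when any library except YkiWT replicate 2 was left out, with limma BH-adjusted p-values of up to 0.087. Hemocyte markers, the blood cells that also make such proteins, summed to 14.2, 19.4 and 15.1 TPM in control and 18.2, 20.3 and 22.0 in YkiWT. Of 6 tested, 3 were higher at the adjusted p, against 7.34% of all tested genes, and none was called. The part of blood cells in these results was not tested.

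Many detoxification genes rose. Of 25 tested glutathione S-transferase genes, which encode enzymes that conjugate toxic molecules, 14 were higher at the adjusted p and none lower (7.34% and 3.26% over all tested genes). Calls numbered 5, all higher, against 1.88% of all tested genes, and the median was 0.51. GstE9 had 1.49, 1.86 and 1.95 TPM in control and 8.57, 15.2 and 11.1 in YkiWT (log2 fold change 2.19; limma, BH-adjusted p = 0.00099). GstE1 had 6.81, 7.71 and 4.83 against 14.5, 20.8 and 16.9 (log2 fold change 1.28), and the most abundant member, GstD1, had 228, 252 and 219.5 against 360.4, 360.0 and 310.0 (log2 fold change 0.50). The groups did not overlap in any of these. GstE3 was called at 1.14, and at 0.92 was not without YkiWT replicate 1. The calls of GstD2 and GstD5, low genes with log2 fold changes of 1.88 and 2.15, were lost when any library except YkiWT replicate 2 was left out, with limma BH-adjusted p-values up to 0.069 and 0.13. Neighbouring Gst genes are alike in sequence, so their values depend on how reads were shared among them. Of 42 tested cytochrome P450 genes 5 were called higher and none lower, against 1.88% and 0.246% of all tested genes. The median of this list was 0.18. The calls with the largest changes were Cyp4d8, from 3.96, 5.69 and 4.59 TPM to 15.4, 15.8 and 18.0 (log2 fold change 1.59), and Cyp6a9, from 0.896, 1.54 and 1.24 to 5.02, 5.48 and 5.44 (log2 fold change 1.56). Without replicate 3 the list also held 5 calls, but 1 of these was Cyp4g1, so not all of the first 5 were kept. Cyp4g1, known for hydrocarbon synthesis in oenocytes, had a larger log2 fold change of 2.31 that did not pass (limma, BH-adjusted p = 0.15), with 3.23, 2.003 and 1.03 TPM in control and 17.5, 68.3 and 1.40 in YkiWT. Replicate 3 lay within the control range, and without it the log2 fold change was 3.64 and called (limma, BH-adjusted p = 0.0045).

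**Figure D4:**
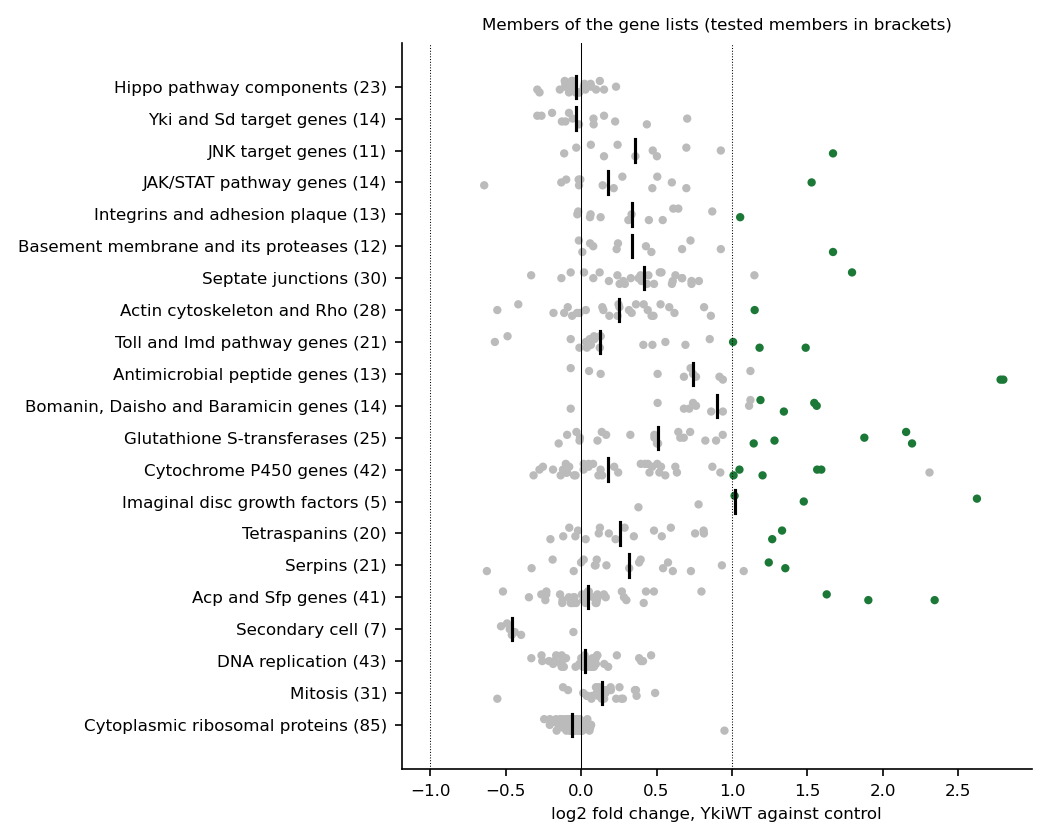
Each point is the log2 fold change of YkiWT against control of 1 tested member of a gene list, with called genes in green, list medians as black bars and the fold threshold as dotted lines at -1 and 1. Among the lists drawn, the imaginal disc growth factors (median 1.02) and the Bomanin, Daisho and Baramicin genes (0.90) lie farthest to the right, and the secondary cell genes (-0.46) farthest to the left.

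Several secreted proteins of other families rose. The imaginal disc growth factors are chitinase-like proteins that act on cells and on cuticle. Of their 5 tested genes 3 were called higher, against 1.88% of all tested genes. Idgf4 had 6.89, 17.7 and 5.93 TPM in control and 48.6, 49.2 and 99.9 in YkiWT, with replicate 3 the highest and no overlap, a log2 fold change of 2.62 (limma, BH-adjusted p = 0.0083) that was 2.29 without replicate 3. Idgf3 (log2 fold change 1.48) and Idgf6 (1.02) were called but lost the call without replicate 3, and also without control replicate 1 or 3 or YkiWT replicate 1, Idgf3 without YkiWT replicate 2 as well, with limma BH-adjusted p-values up to 0.12 and 0.085. The apolipoprotein D-like gene NLaz went from 58.4, 68.6 and 50.5 TPM to 144, 144 and 287, a log2 fold change of 1.56 that was 1.23 without replicate 3. Npc2b, of the Niemann-Pick C2 family of lipid-binding proteins, went from 53.4, 89.7 and 44.7 TPM to 184, 192 and 192 (log2 fold change 1.60). Arc1, a gene of retroviral Gag origin whose protein forms capsids, went from 96.9, 149 and 74.0 TPM to 366, 249 and 349 (log2 fold change 1.57), and its neighbour Arc2 rose by 1.17, which was just under 1 without YkiWT replicate 1. These 4 genes kept their calls without replicate 3.

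The share of TPM held by the Acp and Sfp genes moved by less than the spread of the YkiWT libraries, while that of the Sex Peptide network was lower. The Acp and Sfp genes held 16.1% ± 0.417 (SD, n = 3) of TPM in control and 16.5% ± 0.740 (SD, n = 3) in YkiWT, and an exact permutation test gave p = 0.5, where 0.1 is the smallest p that 3 against 3 allows. Of 41 tested, 3 were called higher and none lower, against 1.88% and 0.246% of all tested genes, with a median of 0.04. The 13 genes of the Sex Peptide network, Sex Peptide and seminal proteins that act with it or in sperm storage, held 3.812% ± 0.0571 (SD, n = 3) in control and 3.398% ± 0.0405 (SD, n = 3) in YkiWT. The groups did not overlap and the exact permutation p was the smallest possible, 0.1. Of 11 tested, 1 was higher and 2 were lower at the adjusted p, against 7.34% and 3.26% of all tested genes, and none was called. Sfp79B rose from 66.7, 35.1 and 34.4 TPM to 231, 96.8 and 549.6, a log2 fold change of 2.34 with a wide spread in YkiWT that was 1.72 without replicate 3. Its call was kept there and lost without YkiWT replicate 1 or control replicate 2 or 3, at limma BH-adjusted p-values up to 0.068. Sfp60F (log2 fold change 1.90) and Sfp87B (1.63) rose from a low level, with 2.19 to 5.04 and 1.52 to 6.60 TPM in YkiWT and replicate 3 the lowest. Sfp87B was not called without YkiWT replicate 1 or 2 or control replicate 1 or 2 (limma, BH-adjusted p up to 0.12). EbpII, an ejaculatory bulb protein gene, went with them, from 0.208, 0.86 and 1.19 TPM to 7.75, 5.78 and 3.83 (log2 fold change 2.06), and Ebp was called at 1.05, though not without any one of the control libraries. The duct and bulb genes Dup99B and Est-6 overlapped between the groups, with 273 to 559.9 TPM in control against 512 to 919 in YkiWT for Dup99B, and 34.6 to 153 against 69.0 to 178 for Est-6.

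A part of the secondary cell genes was lower. Of 7 tested, 4 were lower at the adjusted p, against 3.26% of all tested genes, and none was higher, none was called, and the median of -0.46 was -0.41 without replicate 3. The C-type lectin gene lectin-46Ca, whose product acts in the Sex Peptide network, had 2724, 3254 and 3099 TPM in control and 2412, 2082 and 2029 in YkiWT (log2 fold change -0.53; limma, BH-adjusted p = 0.017). The groups did not overlap. The transcription factor gene dve went from 10.8, 13.6 and 11.9 TPM to 8.26, 8.36 and 9.79 (log2 fold change -0.47), and Rab19 from 24.5, 29.5 and 29.5 to 22.8, 20.6 and 19.7 (log2 fold change -0.44). The summed level of the list was 8293, 9286 and 9226 TPM in control and 7376, 6298 and 6145 in YkiWT. Main cell genes, 10 tested, had a median of 0.02 and no member past the adjusted p.

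The 2 calls in the list of heat shock genes were lost when single libraries were left out. Of the names in that list, Hsp67Bb was not found among the measured gene names. Whether that gene was measured under another name was not tested. Hsp70Bb, one of several near-identical copies, had 36.6, 67.4 and 36.2 TPM in control and 75.9, 74.8 and 151 in YkiWT, a log2 fold change of 1.02 that was 0.69 without replicate 3 (limma, BH-adjusted p = 0.062), and the call was also lost without control replicate 1 or 3. Hsp22 rose by 1.25. Its call was lost whichever library was left out, while the log2 fold change stayed between 1.08 and 1.44 (limma, BH-adjusted p up to 0.14). Hsp22 lies within CG4456, which had 0.810, 0.527 and 0.751 TPM in control and 6.72, 6.55 and 6.62 in YkiWT. CG4456, a name that is not in that list, rose by 2.26 and kept its call whichever library was left out. The metallothionein gene MtnA had 227, 262 and 227 TPM against 651, 371 and 771, a log2 fold change of 1.20, and was not called without YkiWT replicate 1 or 3 or control replicate 3.

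Set directly against Yki*+Dp, which shares no library with it, YkiWT differed in 327 genes (4.02% of those tested), of which 201 (2.47%) were higher and 126 (1.55%) lower in Yki*+Dp. With TPM as deposited, a scaling that moves the median gene by 0.27 on the log2 scale in this comparison, the split was 365 higher and 72 lower. Without YkiWT replicate 3 it was 219 higher and 122 lower, 341 in all. The genotypes differ in the form of Yki, its level and the Dp transgene at once, and these cannot be told apart. Dp had 21.8, 23.5 and 22.3 TPM in YkiWT and 2327, 2548 and 1866 in Yki*+Dp. E2f1, which the Yki*+Dp label also lists, was at 18.5, 18.5 and 22.8 TPM there and at 14.4, 17.4 and 17.2 in YkiWT.

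Some genes that rose in YkiWT were much higher in Yki*+Dp. The C-type lectin gene lectin-28C had 1.13, 1.62 and 1.05 TPM in control, 3.61, 7.65 and 4.89 in YkiWT and 156, 278 and 196 in Yki*+Dp, a difference of 4.77 from YkiWT (SE 0.27; limma, BH-adjusted p = 1.4e-06). The groups lay in order with no overlap, and the gene overlaps TwdlE on the other strand. Ssk had 164, 238 and 170.5 TPM in Yki*+Dp, a difference of 2.19. Septate junction genes as a list had 7 of 30 called higher there than in YkiWT and none lower, against 2.47% and 1.55% of all tested genes. Act42A had 292, 394 and 293 TPM, a difference of 1.76, Itgbn 72.0, 97.0 and 73.7, a difference of 1.12, and the tetraspanin gene Tsp42Ed 456, 659 and 467 against 128, 141 and 144 in YkiWT, a difference of 1.58. These differences passed with a limma BH-adjusted p of at most 0.00092. Mmp1 had 10.1, 9.66 and 10.2 TPM, and the difference of 0.39 from YkiWT did not pass (limma, BH-adjusted p = 0.33).

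Other genes were higher in YkiWT than in Yki*+Dp. CG43403, the gene with the largest rise, had 8.02, 13 and 37.3 TPM in Yki*+Dp. Myc+E2f/Dp had 43.7, 83 and 29.7, all below every YkiWT library. The difference of Yki*+Dp from YkiWT was -3.79 on the log2 scale (SE 0.48; limma, BH-adjusted p = 0.00026). EloA, the gene of the transcription elongation factor subunit Elongin A, had 2.12, 2.58 and 2.27 TPM in control, 7.84, 9.20 and 9.21 in YkiWT and 2.70, 2.45 and 4.61 in Yki*+Dp, a difference of -1.52, and it overlaps wda on the other strand. Cyp12c1 was near control or below it in Yki*+Dp, at 2.39, 1.72 and 5.23 TPM against 12.9, 13.2 and 12.3 in YkiWT (difference -2.13). Both passed with a limma BH-adjusted p of at most 0.00016. Listericin had 0.316, 0.658 and 5.39 TPM in Yki*+Dp, where replicate 3 overlapped YkiWT (difference -1.73; limma, BH-adjusted p = 0.030). Among the falls, CG12934 was 3.14 higher in Yki*+Dp than in YkiWT (limma, BH-adjusted p = 3.2e-07) and α-Est7 1.27 higher (5.3e-05).

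**Figure D5:**
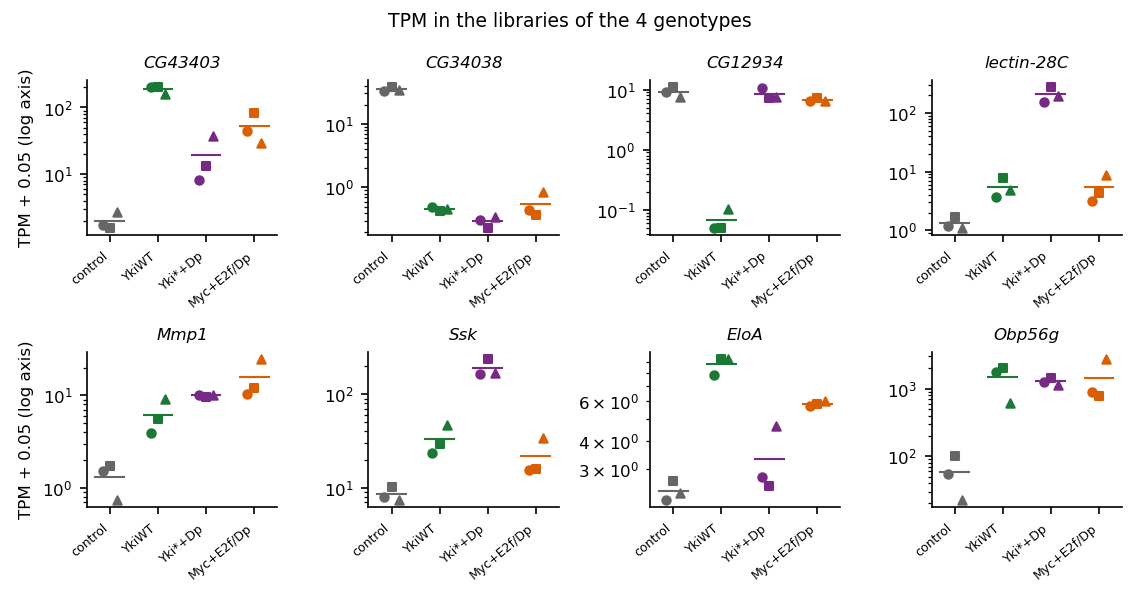
TPM plus 0.05 on log axes for 8 genes in the 3 libraries of each genotype (circle, square and triangle for replicates 1, 2 and 3), with bars at the mean. CG34038 is below 1 TPM in all 3 overexpression genotypes, CG12934 is low in YkiWT alone, CG43403 is highest in YkiWT and lectin-28C in Yki*+Dp.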

How the data were processed

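Poly-A RNA of 12 accessory gland libraries was sequenced by the authors as stranded libraries (NovaSeq SP, 100 cycles), trimmed with cutadapt 1.18 and assigned to BDGP6 transcripts with kallisto, whose version and strand option are not given in the sources used here. The deposited values are TPM per transcript, for 31089 transcripts, and TPM per gene, which equal their sums to within 3.64e-12. TPM keeps no depth, so the depth per library is unknown and no counting error can be attached to a value. The authors tested genes with sleuth, whose inputs were not used here.

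Libraries were scaled by median-of-ratios factors from 6633 genes that reached 1 TPM in every library (1.13 to 1.36 in control and 1.16 to 1.26 in YkiWT), a pseudocount of 1 was added and log2 taken. Genes that reached 1 TPM in no fewer than 3 libraries entered 1 fit over the 4 genotypes with limma 3.58.1 in R 4.3.3 (eBayes with an intensity trend), with Benjamini-Hochberg adjustment over 8128 genes in each comparison. The thresholds on adjusted p (0.05) and log2 fold change (1) follow the study. On simulated data of equal size 93% of genes changed by 1.5 on the log2 scale and 99% of those changed by 3 were called. Of the 7928 unchanged genes there, 0 were called. The rate of missed or false calls in the gland libraries themselves was not tested. Single summed values were compared by a two-sided exact permutation test. Figures were drawn with matplotlib 3.10.9.

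The comparison, the 49 gene lists and the alternatives were chosen with earlier results of these data known. Genes were named by a rule: the transgenes, genes the study names, the 15 largest rises and falls, called members of lists (up to 6) and their 4 most abundant members, the 10 most abundant called genes, calls that depend on YkiWT replicate 3 and tissue markers. Others, such as stck, cold, Lac, tsr, dve, Rab19, Tl, pirk, cib, ics, lectin-28C, EloA, Cyp4g1, CG4456 and α-Est7 among the genotypes, were chosen after their values were seen. Coordinates are from the Ensembl BDGP6.54 annotation, in which 7926 tested genes were found by name. The alternatives were other scalings, pseudocounts and filters, a fit of the compared groups, a replicate block, no intensity trend, array weights, limma's treat, another fold threshold, transcript values and leaving out each library. Counting genes of identical values once was added after seeing the data.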

Additional observations from a re-analysis of the deposited data

Results flagged for a closer look

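Yki*+Dp and YkiWT glands differed in 327 genes when set directly against each other. The genotypes differ in the form of Yki, its level and the Dp transgene, which cannot be told apart. The log2 difference of Yki*+Dp from YkiWT was 4.77 for lectin-28C, -3.79 for CG43403 and 3.14 for CG12934 (limma, Benjamini-Hochberg adjusted p at most 0.00026), and the libraries of the genotypes did not overlap in any of the 3.

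Transcript FBtr0309372 of yki, which rose in both Yki genotypes, was also above control in Myc+E2f/Dp, whose label lists no Yki transgene. It had 83.6, 132 and 17.3 TPM there against at most 2.92 in control, so that replicate 2 was above 2 of the 3 YkiWT libraries and replicate 3 below all of them.

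Signals outside the tested genes were seen in YkiWT: 41 genes with at least 1 TPM stood at 5 times or more of every other library in replicate 3, and 20 in replicate 1. The controls had at most 1 such gene.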

How the results depend on the processing

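No called gene was called in the opposite direction under any alternative. With transcript values, 6 genes outside the 173 had transcripts called in both directions. Without YkiWT replicate 3 or another single library the YkiWT calls ranged from 129 to 182, the rises from 113 to 163, the falls from 16 to 21 and the log2 fold change of yki from 2.18 to 2.81, while the difference in Acp and Sfp share ranged from 0.168 to 0.866 percent of TPM. Calls between Yki*+Dp and YkiWT ranged from 262 to 353, with 156 to 219 higher and 106 to 142 lower in Yki*+Dp. With a pseudocount of 0.1 there were 318 YkiWT calls (276 higher, 42 lower) and 214 genes lower in Yki*+Dp than in YkiWT. A filter at 5 TPM left 13 falls, and transcript values gave 43 falls. TPM as deposited gave 365 genes higher and 72 lower in Yki*+Dp than in YkiWT, and 155 YkiWT calls. With limma's treat, which tests against the fold threshold itself, 26 YkiWT calls remained among the 173 (21 higher, 5 lower) and 37 between the Yki genotypes (29 and 8 of them higher and lower in Yki*+Dp), and yki, with its log2 fold change of 2.56, had a Benjamini-Hochberg adjusted p of 0.303. A fold threshold of 0.5 gave 515 YkiWT calls (414 higher, 101 lower) and 1110 between the Yki genotypes (590 and 520). The cause of these changes was not tested, apart from the thresholds and filters themselves.

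The replicate number as a block gave 167 calls, 164 of them shared with the 173. The libraries share only a number: the deviations of same-numbered libraries correlated at 0.09, -0.02 and 0.26, and not every library correlated best with its own number. The named genes were followed under each alternative that gave them a value. Of these single results 200 lost their call, 66 of them under treat, 18 gained one and 1904 stayed on their side of the thresholds. Counting identical values once left 165 genes. Unknown depth limits what can be said of genes under 1 TPM, and a shift shared by most genes would be removed by the scaling.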

Other observations

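Some called genes lay near each other, a count that was not compared with that of other genes. With a gap of at most 20000 bases, 45 of the 171 called genes with coordinates fell into 15 clusters, 9 of these genes being the His2A copies, and 2 clusters held genes of both directions. On chromosome 2R between 25167659 and 25255318, CG34038 fell by 4.90 and CG9380 by 1.89 on the log2 scale, while Sfp60F, EbpII and Ebp between them rose by 1.90, 2.06 and 1.05. The call of Ebp was lost without any one control library. CG9380 had 6.66, 8.31 and 6.68 TPM in control and 1.32, 1.19 and 1.75 in YkiWT. In the other cluster of both directions, on 3R, CG14854 fell by 1.30 and CG31313 and CG8066 rose by 1.49 and 1.07. CG14854 was at the fold threshold without YkiWT replicate 3, and CG8066 without YkiWT replicate 1. The falls were spread over 4 chromosome arms, with 5 on 2L, 6 on 2R, 3 on 3L, 6 on 3R and 0 among 1255 tested genes of the X, where 18 genes rose. In the same order the falls were 0.339%, 0.361%, 0.199% and 0.308% of the tested genes of the 4 arms, against 0.246% of all tested genes. The rises were 1.43% of the tested X genes, against 1.88% of all. Whether the X differs from the other chromosomes was not tested.

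Genes known by a number alone were among the most abundant rises. CG42656 went from 67.4, 50.7 and 55.9 TPM to 322, 239 and 357, with no overlap (log2 fold change 2.32), and CG6891 from 16.4, 22.0 and 10.3 to 68.9, 89.1 and 110.1 (log2 fold change 2.39). CG4269 went from 13.3, 27.7 and 12.9 TPM to 87.6, 112 and 110.7 (log2 fold change 2.50). The unconventional myosin gene Myo31DF rose from 1.46, 2 and 1.05 TPM to 4.88, 6.60 and 9.54 (log2 fold change 1.69), and the thioester protein gene Tep4 from 0.938, 1.79 and 1.10 to 3.27, 4.27 and 6.61 (log2 fold change 1.34). All 5 were called without YkiWT replicate 3.

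The 9 His2A copies had a single set of values, 0.0699, 0.3 and 0.217 TPM in control against 4.83, 4.71 and 6.29 in YkiWT. Another copy, His2A:CG33808, went the other way, from 3.21, 0.728 and 0.796 TPM to less than 0.01 in each YkiWT library. Of 20 tested canonical histone genes, 9 were called higher and 1 lower. At the adjusted p 9 were higher and 10 lower, with a median log2 fold change of -0.52. The 20 genes held only 4 distinct sets of values. Reads of such copies cannot be told apart, and which copies the change belongs to is uncertain.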
